A study of Mus musculus with 8 samples.

Results

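The comparison set knockdown of CapH2, the product of Ncaph2 and a subunit of condensin II alone, against knockdown of Smc2, a subunit that condensin I and condensin II share, in mouse embryonic stem cells. Its members were the 4 of 8 arrays in the series whose titles name these knockdowns. The CapH2 group was CapH2 hairpin 3 and CapH2 hairpin 4, and the Smc2 group was Smc2 hairpin 1 and Smc2 hairpin 2, with 1 array for each hairpin. The other 4 arrays, 2 of an Smc1 knockdown and 2 of a hairpin against GFP, entered no test here.

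All cells were of the V6.5 line, an established mouse embryonic stem cell line. Cells took up a virus that encodes a short hairpin RNA in the presence of polybrene (8 µg/ml), and from the next day were selected in puromycin (4 µg/ml) for 4 days. Infection and drug selection were thus common to both groups. Total RNA was labelled with biotin, 100 ng per sample, by a 3' method for Affymetrix arrays, and the deposited values are intensities for 44903 probe sets. Each array of a group carried a different hairpin. The spread within a group therefore holds hairpin, array and any culture together, which cannot be told apart. The labels do not say more about separate cultures.

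Condensins are ring-shaped complexes that fold and compact chromosomes for mitosis and also act on interphase chromatin. Both contain the ATPase pair Smc2 and Smc4. Condensin I adds the kleisin Ncaph with Ncapd2 and Ncapg, and reaches chromosomes after the nuclear envelope breaks down, whereas condensin II adds the kleisin Ncaph2 with Ncapd3 and Ncapg2 and is nuclear throughout the cell cycle. The comparison therefore puts lowered RNA of a condensin II subunit beside lowered RNA of a subunit of both complexes.

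Each hairpin group was low for its own target. Ncaph2 measured 738.3 and 869.9 on the CapH2 arrays, against 1858 and 2452 on the Smc2 arrays, with the brightest probe set (1439360_x_at). Both CapH2 values lay below both Smc2 values, a log2 difference of CapH2 minus Smc2 of -1.40 (SE 0.23), which left CapH2 at 37.3% of Smc2. The same probe set read 2170 and 2028 on the Smc1 arrays and 1892 and 2570 on the GFP arrays. Smc2 hairpin 1 lay below all 4 of these arrays and Smc2 hairpin 2 lay between the GFP arrays. Smc2 (1448635_at) measured 6088 and 7094 on the CapH2 arrays, against 2234 and 2859 on the Smc2 arrays, a log2 difference of 1.37 (SE 0.19), and the Smc2 group was at 38.6% of the CapH2 group. On the Smc1 arrays Smc2 read 6466 and 6005, and on the GFP arrays 8756 and 7146.

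The other probe sets of both targets gave differences of other sizes. For Ncaph2, 1423698_at read 397.5 and 429.5 on the CapH2 arrays, against 2134 and 3049 on the Smc2 arrays, a log2 difference of -2.58 that put CapH2 at 16% of Smc2. This is the brightest Ncaph2 probe set when all 8 arrays are averaged, and 1439360_x_at is the brightest when the 4 arrays of the comparison are, so the size of the Ncaph2 difference depends on that choice by more than 1.5 times. The dimmer 1423699_at gave 100.2 and 67.88 on the CapH2 arrays, against 312.3 and 208.3 on the Smc2 arrays, and the groups do not overlap there either. Only 1429477_at overlapped, with 311.2 and 509.8 on the CapH2 arrays, against 303.6 and 465.7 on the Smc2 arrays. For Smc2, 4 of 5 probe sets did not overlap, with log2 differences of 1.31 to 1.63, and 1458479_at did, at 164.1 and 325.0 on the CapH2 arrays, against 130 and 297.1 on the Smc2 arrays.

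**Figure D1:**
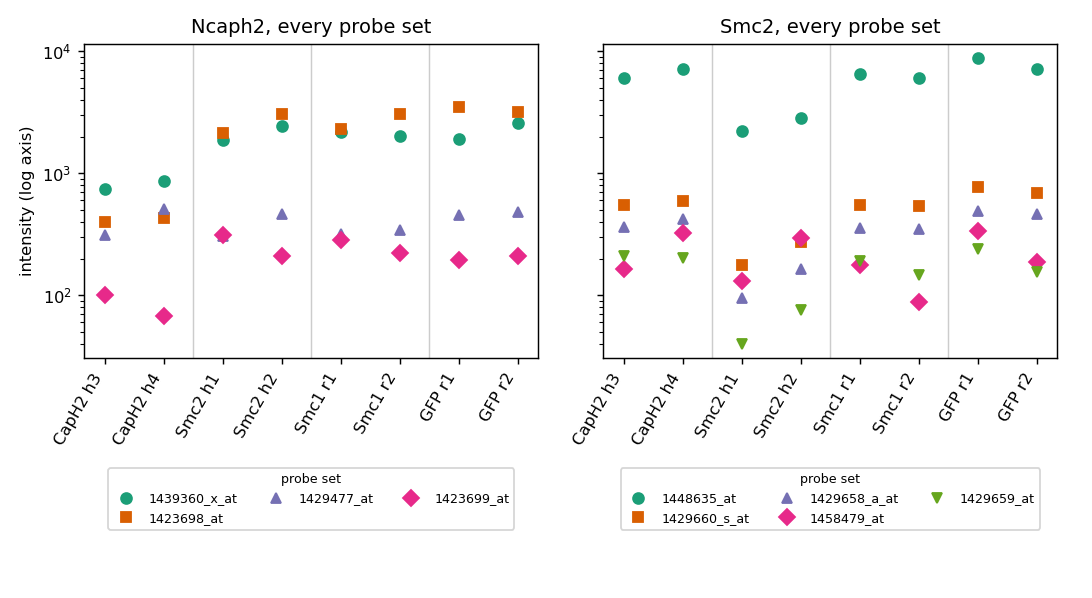
Intensity on a log axis of every probe set of Ncaph2 (left) and Smc2 (right) on each of the 8 arrays, h for hairpin and r for replicate. The CapH2 arrays are low for Ncaph2 in 3 of its 4 probe sets and the Smc2 arrays are low for Smc2 in 4 of its 5.

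RNA of the 6 condensin subunits that were not targeted did not separate the groups. Smc4, the partner of Smc2, measured 7931 and 9957 on the CapH2 arrays, against 8013 and 11030 on the Smc2 arrays. Ncaph, the kleisin of condensin I, measured 4268 and 5945 on the CapH2 arrays, against 5451 and 5876 on the Smc2 arrays, which was the largest of these 6 differences at -0.17 (SE 0.19). The groups overlapped for every one of the 6, and their log2 differences ran from -0.17 to 0.07. Ncapd3 and Ncapg2, the other condensin II subunits, differed by 0.02 and -0.06. Leaving out 1 array at a time turned the sign of all of these 6 under at least 1 omission.

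No gene, the targets included, passed the test across all genes. Genes were tested where the brightest probe set exceeded the median of its array on 2 or more of the 4 arrays, leaving 11772 of 18140 genes. At an adjusted p below 0.05, 0 genes (0%) were called by limma, and every adjusted p was 0.9999. The unadjusted p was below 0.05 for 75 genes (0.637%), 49 higher and 26 lower in CapH2. That is a smaller share than this threshold lets through on average when no gene differs. Smc2 had the smallest limma p (0.00020) and Ncaph2 the next (0.00056), and the third smallest was 0.0050. The number called was also 0 in 14 of 17 other settings. In the other 3, limma called Smc2 alone at an adjusted p of 0.016 with a replicate block from the values over 8 arrays, Ncaph2 alone at 0.0042 with the probe set, filter and spread taken over all 8 arrays (a setting added with that call known), and Smc2 and Tagln2 at 0.0034 and 0.0042 without Smc2 hairpin 2. Tagln2, an actin-binding protein, read 4102 and 4763 on the CapH2 arrays, against 1384 and 4786 on the Smc2 arrays, so the groups overlap and its call rests on the value of 1384 alone.

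With 2 arrays per group, a plainer description is whether both CapH2 values lie on 1 side of both Smc2 values. That held for 1466 genes higher in CapH2 (12.5%) and 1187 lower (10.1%), while 9119 overlapped. With so few arrays such an order often arises without any difference between groups, so these counts alone do not show a response. Requiring a mean difference of at least 2-fold as well left 19 higher (0.161%) and 10 lower (0.0849%). Of the genes that did not overlap, 55.3% were higher in CapH2, but 48.5% after quantile normalization and 42.1% after centring each array on its median, so the balance of directions depends on the scaling.

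The 2 arrays of a knockdown, each with its own hairpin, differed from each other more than some pairs of arrays from different knockdowns. Between CapH2 hairpin 3 and Smc2 hairpin 1, 193 genes (1.64%) differed at least 2-fold, and between CapH2 hairpin 4 and Smc2 hairpin 2, 184 (1.56%). Between the 2 CapH2 hairpins 473 did (4.02%), and between the 2 Smc2 hairpins 719 (6.11%). The other CapH2 against Smc2 pairs gave 451 and 495. In a principal component analysis of the 4 arrays, the first component held 59.4% of the variance and placed CapH2 hairpin 3 (-18.46) with Smc2 hairpin 1 (-25.95), and CapH2 hairpin 4 (19.24) with Smc2 hairpin 2 (25.16). The component that separated the knockdowns was the third and smallest, with 17.87%.

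**Figure D2:**
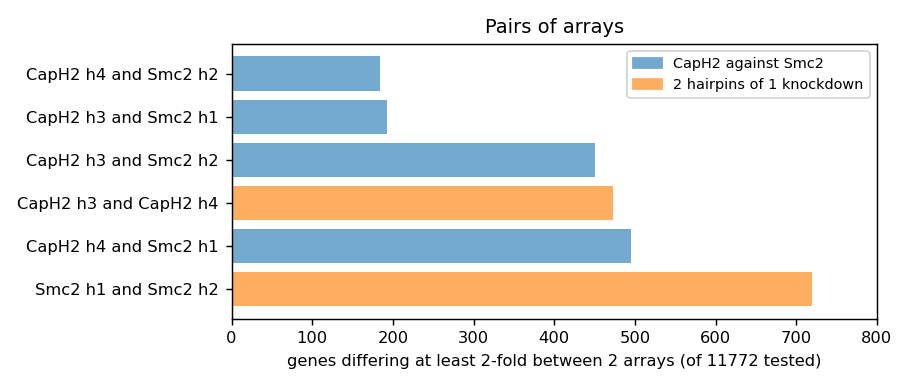
Number of the 11772 tested genes that differ at least 2-fold between each pair of the 4 arrays, with CapH2 against Smc2 pairs in blue and pairs of hairpins within a knockdown in orange. CapH2 hairpin 4 with Smc2 hairpin 2 has the fewest (184) and the 2 Smc2 hairpins have the most (719).

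Over all genes tested, the difference of CapH2 hairpin 4 minus 3 correlated with that of Smc2 hairpin 2 minus 1 (r = 0.443). Of genes at least 2-fold in both, 153 had the same sign and 20 the opposite. Some gene lists had medians of the same sign in both differences, which is therefore not particular to them. Epiblast and primed-state genes had a median log2 difference of -0.70 between CapH2 hairpins 4 and 3 and of -0.85 between Smc2 hairpins 2 and 1. None of the 23 tested members separated CapH2 from Smc2, and their median difference between the knockdowns was -0.01. Ribosome biogenesis and Myc target genes gave -0.22 and -0.58 between the same hairpins, glycolysis and hypoxia genes 0.42 and 0.36, and cholesterol synthesis genes 0.36 and 0.29. Primitive endoderm genes (-0.46 and 0.60), p53 targets (-0.23 and 0.50) and 2-cell-like genes (-0.65 and 0.41) ran in opposite directions in the 2 knockdowns. The 3'/5' ratio of Actb, a measure of RNA integrity, was 1.67 and 1.98 on the CapH2 arrays, against 1.82 and 2.18 on the Smc2 arrays, so it was higher for CapH2 hairpin 4 and Smc2 hairpin 2 as well. The part of RNA quality in this split was not tested.

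The genes with the largest differences were listed by a rule of size, and none passed the adjusted threshold. The 12 largest higher and 12 largest lower, targets included, were taken from 33 and 21 genes with an unadjusted p below 0.05, no overlap and a mean of at least 150 in the brighter group. Phldb1, a pleckstrin homology domain protein of the cell cortex, measured 373.8 and 374.9 on the CapH2 arrays, against 198.2 and 204.1 on the Smc2 arrays, a log2 difference of 0.85 (SE 0.23). Lama1, the laminin alpha-1 chain of embryonic basement membrane, measured 632.0 and 404.2 on the CapH2 arrays, against 245.6 and 309.1 on the Smc2 arrays, a difference of 0.84 (SE 0.29). Trim26, a ubiquitin ligase of the TRIM family, measured 486.4 and 443.9 on the CapH2 arrays, against 247.9 and 296.9 on the Smc2 arrays. In each of these both CapH2 arrays lay above both Smc2 arrays with these probe sets, and the 2 CapH2 values of Phldb1 were nearly equal. A dimmer Phldb1 probe set, above the median on all 4 arrays, overlapped with a difference of 0.12. It read 176.2 and 120.9 on the CapH2 arrays, against 157.4 and 113.3 on the Smc2 arrays. The remaining higher genes were Sncb (0.96), Cux2 (0.89), Myorg (0.78), Rad54l2 (0.75), Tbc1d9b (0.74), Hs3st2 (0.73), Lhfpl2 (0.72) and Slc7a4 (0.71).

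Among the lower genes, Tcl1b3, a member of the Tcl1 family of Akt coactivators, measured 1142 and 1722 on the CapH2 arrays, against 1992 and 2443 on the Smc2 arrays, a log2 difference of -0.65 (SE 0.26). Lyrm2, a mitochondrial LYR-motif protein, measured 777.9 and 558.6 on the CapH2 arrays, against 961.3 and 1116 on the Smc2 arrays, a difference of -0.64 (SE 0.25). Mul1, a ubiquitin ligase of the outer mitochondrial membrane, measured 388.1 and 358.4 on the CapH2 arrays, against 614.3 and 518.5 on the Smc2 arrays. All 3 were lower on both CapH2 arrays with these probe sets, although the mean of all Mul1 probe sets gave 0.09. A dimmer Lyrm2 probe set, above the median on all 4 arrays, overlapped between the groups, with a difference of 0.11. The remaining lower genes were Tmem267 (-0.87), Nkain4 (-0.83), Dnajb5 (-0.78), C330018D20Rik (-0.78), Slc31a2 (-0.63), Fbxw22 (-0.58), Golph3l (-0.57) and Slc30a4 (-0.56). Of the 22 genes besides the targets, 14 had other probe sets on the array, and of those 21 probe sets 13 had the same sign and 8 the opposite.

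**Figure D3:**
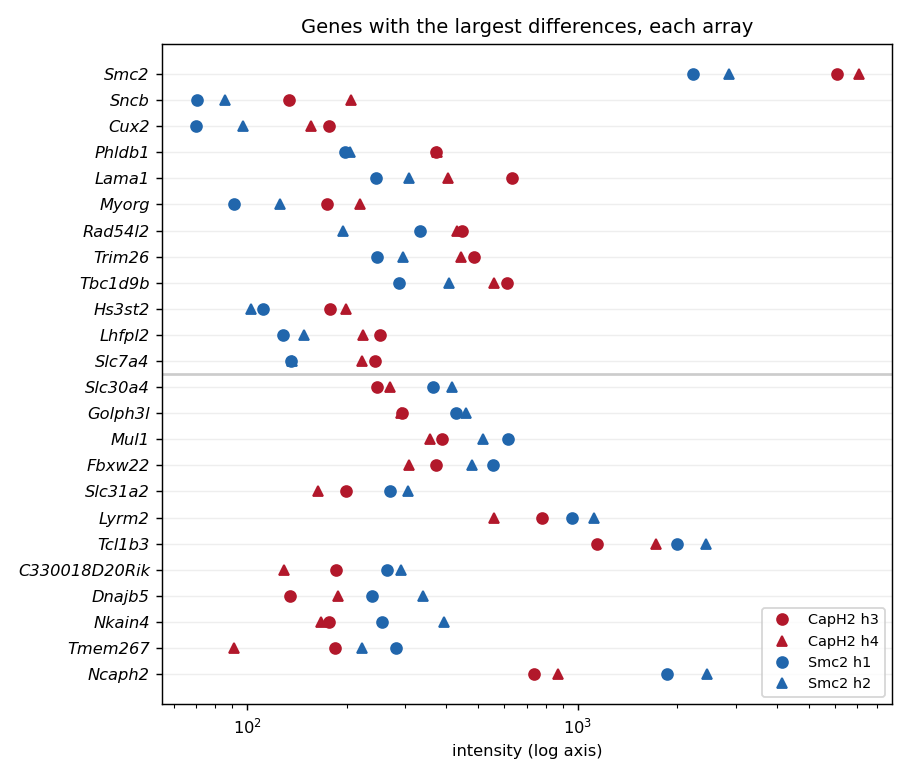
Intensity on a log axis of the genes with the largest CapH2 minus Smc2 differences on each of the 4 arrays, CapH2 in red and Smc2 in blue, with higher genes above the grey line and lower genes below it. The groups do not overlap for any of them, as the rule required, and Smc2 and Ncaph2 lie at the outer ends.

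The brightest genes had more members lower than higher in CapH2. In the brightest of 10 equal groups by mean level (1178 genes, mean of at least 4100), 52 genes were higher and 297 lower (25.2%), and the median log2 difference was -0.07. That median was below 0 in all 4 differences between a CapH2 array and an Smc2 array (-0.09, -0.06, -0.08 and -0.05). Among the brightest 118 genes 0 were higher and 75 lower (63.6%). After quantile normalization the brightest group had 131 higher and 130 lower and a median of -0.01, and after median centring 18 higher and 353 lower.

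**Figure D4:**
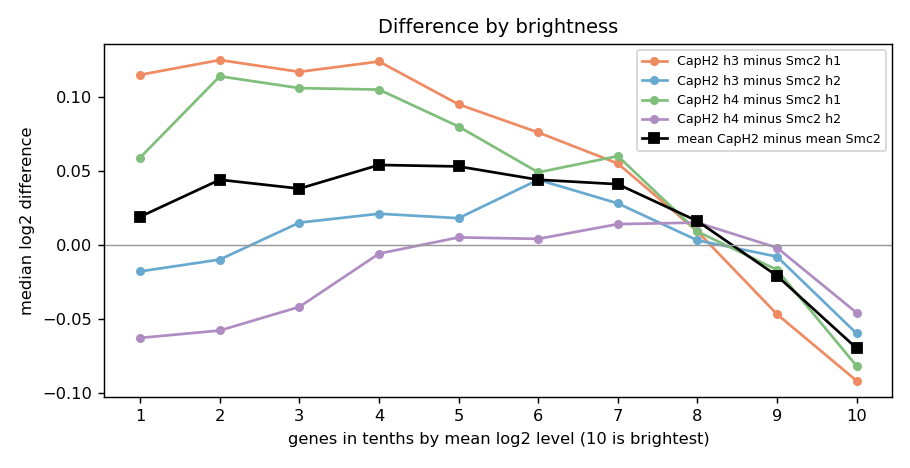
Median log2 difference, CapH2 minus Smc2, in 10 equal groups of genes by mean log2 level, for each of the 4 array-to-array differences and for the group means. All 5 lines lie below 0 in the brightest group, where the group means give -0.07.

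The bright genes included those of the ribosome and the respiratory chain. Of 48 tested cytosolic ribosomal protein genes, 1 was higher and 33 were lower in CapH2 (68.8%, beside 10.1% of all genes), with a median log2 difference of -0.14, beside 0.02 for all genes tested. Rplp2, a protein of the ribosomal stalk, measured 32980 and 33570 on the CapH2 arrays, against 37800 and 38650 on the Smc2 arrays, a difference of -0.20 (SE 0.07). Rpl35, of the large subunit, measured 33450 and 33390 on the CapH2 arrays, against 37000 and 39230 on the Smc2 arrays, a difference of -0.19 (SE 0.08). The differences are small. These 2 genes were named for the smallest p among the non-overlapping members, a choice that favours groups whose arrays keep close together. All 33 lower members lay in the brightest group, where the other genes outside both lists were also lower in 22.1% of cases, and of the 8 members elsewhere 0 were lower without overlap. Of the brightest 118 genes, 72 were outside both lists, and 0 of these were higher and 38 lower (52.8%). The median difference was -0.14 both in the brightest group and elsewhere. Among 54 tested oxidative phosphorylation genes, 1 was higher and 24 were lower (44.4%), with a median of -0.11. After quantile normalization the ribosomal genes counted 4 higher and 8 lower with a median of -0.01, and the oxidative phosphorylation genes 9 higher and 10 lower with a median of -0.04. Without Smc2 hairpin 2 the 2 medians were -0.08 and -0.06, and without CapH2 hairpin 3 that of oxidative phosphorylation was -0.07.

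The primitive endoderm, the extraembryonic lineage that lines the blastocyst cavity, had more listed genes higher than lower in CapH2. Of 25 tested, 8 were higher (32%, beside 12.5% of all genes) and 1 lower (4%, beside 10.1%), with a median log2 difference of 0.31. Besides Lama1, Gata6, a transcription factor that specifies this lineage, measured 217.9 and 168.2 on the CapH2 arrays, against 65.89 and 142.0 on the Smc2 arrays, a difference of 0.87 (SE 0.39), and its other, dim probe sets gave -0.21 and -0.89. Lamb1 measured 4048 and 3420 on the CapH2 arrays, against 2884 and 3348 on the Smc2 arrays, and Lamc1 944.1 and 936.1 on the CapH2 arrays, against 691.2 and 822.3 on the Smc2 arrays. Lamb1 and Lamc1 encode the beta and gamma chains that join the Lama1 chain in the laminin of early basement membrane. Thbd, Pdgfra, Amn and Gata4 were also higher and Foxq1 was lower. Thbd read 93.01 and 95.64 on the CapH2 arrays, against 57.54 and 57.76 on the Smc2 arrays. Both Smc2 values lay below the median of their array, so Thbd passed the filter through the CapH2 arrays alone. Gata4 differed by 0.15 (SE 0.34). The list median depended on single arrays. Omitting CapH2 hairpin 3 gave a list median of 0.10, and omitting CapH2 hairpin 4 gave 0.51. Omitting Smc2 hairpin 1 gave 0.04, and omitting Smc2 hairpin 2 gave 0.58. In these bulk samples, fewer cells of a type and less RNA per cell cannot be told apart.

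Markers of other cells that such a culture could hold were set beside this. The summed intensity of the primitive endoderm list was 34896 and 28440 on the CapH2 arrays, against 21414 and 34516 on the Smc2 arrays, so the groups overlapped. That of feeder fibroblast markers was 41305 and 34132 on the CapH2 arrays, against 31203 and 39725 on the Smc2 arrays, and followed the same order of arrays. For the counts in this paragraph, the shares over all genes are 12.5% higher and 10.1% lower. Of 27 tested fibroblast markers 3 were higher and 2 lower, with a median of -0.02. Of the 37 measured, 9 lay below the median on all 4 arrays. Col3a1, a fibrillar collagen, measured 163.3 and 87.74 on the CapH2 arrays, against 60.85 and 46.28 on the Smc2 arrays. Both Smc2 values lay below the median of their array, so Col3a1 passed the filter through the CapH2 arrays alone. The same held for Col6a2, another of the 3 higher markers. Of 21 trophectoderm genes 4 were higher and 1 lower, with a median of 0.07. Tfap2c, an AP-2 factor of trophoblast and germ cells, measured 2686 and 2819 on the CapH2 arrays, against 2207 and 1975 on the Smc2 arrays. The part of such cells in the differences was not tested.

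Pluripotency genes were near the shares of all genes. Of 46 tested, 5 were higher (10.9%, beside 12.5% of all genes) and 7 lower in CapH2 (15.2%, beside 10.1%), with a median of 0.00, and all 10 embryonic stem cell markers were at least 16.6 times the array median on each of the 4 arrays. Fbxo15, an F-box gene expressed in embryonic stem cells, measured 8192 and 7388 on the CapH2 arrays, against 9988 and 10950 on the Smc2 arrays, a log2 difference of -0.43 (SE 0.13). Dppa3, a maternal factor that protects DNA methylation, measured 1435 and 1841 on the CapH2 arrays, against 2204 and 2377 on the Smc2 arrays, a difference of -0.49 (SE 0.21). Pou5f1, the core pluripotency factor, measured 8572 and 10550 on the CapH2 arrays, against 11070 and 12280 on the Smc2 arrays, a difference of -0.29 (SE 0.14). These 3 were lower on both CapH2 arrays. Esrrb, a nuclear receptor of naive cells, was the other way, at 2846 and 3218 on the CapH2 arrays, against 2425 and 2614 on the Smc2 arrays. Nanog (-0.10), Sox2 (0.05) and Klf4 (-0.01) overlapped, and the sign of Klf4 turned under quantile normalization (0.05).

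The mitotic list had more members lower than higher in CapH2. Of 46 tested G2/M and mitosis genes, 1 was higher and 12 were lower in CapH2 (26.1%, beside 10.1% of all genes). The median log2 difference of -0.13 was -0.08 after quantile normalization, 0.00 without CapH2 hairpin 3, 0.01 without Smc2 hairpin 2 and -0.27 without Smc2 hairpin 1. Mad2l1, the spindle checkpoint protein Mad2, measured 7918 and 8190 on the CapH2 arrays, against 9437 and 10250 on the Smc2 arrays, a difference of -0.29 (SE 0.12). Cdk1, the mitotic kinase, measured 9105 and 9719 on the CapH2 arrays, against 10190 and 11700 on the Smc2 arrays, a difference of -0.21 (SE 0.13). Incenp, of the chromosomal passenger complex, was the 1 member that was higher. Top2a, the decatenating topoisomerase, read 14570 and 19950 on the CapH2 arrays, against 15810 and 21360 on the Smc2 arrays, and overlapped. These genes are also bright, with a median position of 9.5 among the 10 groups by level, and in the brightest group 25.2% of all genes were lower.

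The counts for the next lists stand beside shares over all genes of 12.5% higher and 10.1% lower. Among other chromosome-associated complexes, 2 of 22 tested cohesin genes were higher and 0 lower, Rec8 (0.27) and Smc1a (0.10), and the median was -0.01. The Rec8 groups were barely apart, with 283 for CapH2 hairpin 3 and 282.9 for Smc2 hairpin 2. The sign of Smc1a depends on the probe set, since a dimmer one, above the median on all 4 arrays, was lower without overlap at -0.72, and the mean of all its probe sets gave -0.21. Of 8 tested Smc5/6 complex genes 3 were lower (37.5%, beside 10.1% of all genes), Nsmce2 (-0.19), Slf1 (-0.18) and Slf2 (-0.08). A dimmer Slf1 probe set, above the median on all 4 arrays, was higher without overlap at 0.30. The list median of -0.08 became 0.00 without CapH2 hairpin 3 and 0.02 without Smc2 hairpin 2. Lig1, the ligase that joins Okazaki fragments, measured 4490 and 4469 on the CapH2 arrays, against 3682 and 3154 on the Smc2 arrays, a difference of 0.39 (SE 0.16), while 2 of 42 replication genes were higher and 5 lower. Of 30 DNA repair genes 5 were higher and 2 lower, and of 25 p53 targets 1 was higher and 0 lower, with Cdkn1a at -0.10. Hnrnpll, a splicing factor, read 4861 and 5578 on the CapH2 arrays, against 5654 and 4742 on the Smc2 arrays, with no separation.

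For chromatin and transcription lists, the shares over all genes are again 12.5% higher and 10.1% lower. Of 35 polycomb and DNA methylation genes 5 were higher (14.3%) and 3 lower (8.57%), the higher including Dnmt1, the maintenance methyltransferase, at 4191 and 4259 on the CapH2 arrays, against 3573 and 3406 on the Smc2 arrays. Of 48 transcription and Mediator genes 8 were higher (16.7%) and 10 lower (20.8%), and the Mediator subunits went both ways, with Med31 (-0.35) and Med30 (-0.30) lower and Med22 (0.38), Med13 (0.33) and Med12 (0.31) higher. Of 26 heat shock chaperone genes 0 were higher and 7 lower (26.9%), which became 2 and 2 after quantile normalization, and the median position of the list by level was 10 of 10. H2-D1, a class I histocompatibility gene, measured 666.5 and 544.0 on the CapH2 arrays, against 370.0 and 438.2 on the Smc2 arrays, while 4 of 35 interferon response genes were higher and 2 lower. Of the 8 other H2-D1 probe sets, 5 had the same sign and 3 the opposite. Over all 36 lists, with 947 genes tested, 2 had a median above 0 and 3 a median below 0 in all 4 differences between a CapH2 array and an Smc2 array. The 2 were the shared condensin subunits, which hold the target Smc2, and the polycomb and DNA methylation genes (0.06), and the 3 were the ribosomal protein, oxidative phosphorylation and Smc5/6 lists.

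**Figure D5:**
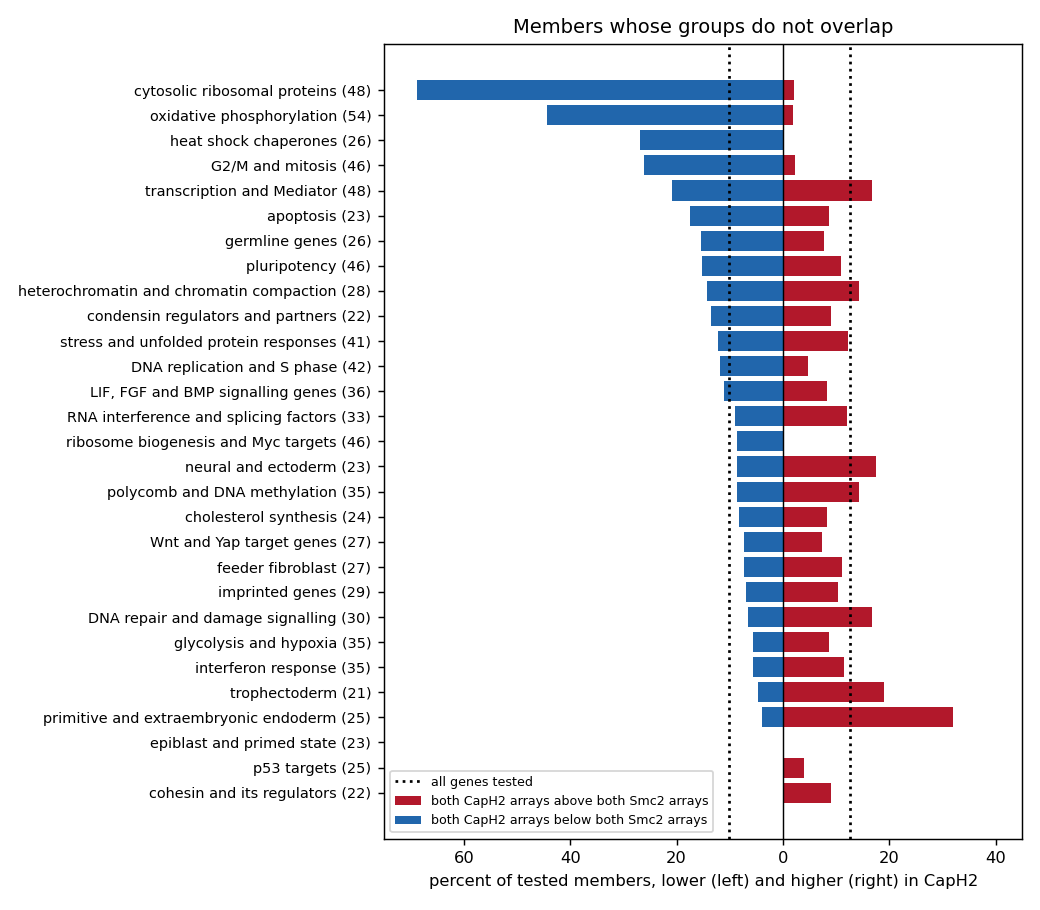
Percent of tested members (number in brackets) of each list with at least 20 tested genes whose CapH2 arrays both lie above (red, right) or both below (blue, left) the Smc2 arrays, with dotted lines at the percent for all genes tested (12.5 higher and 10.1 lower). Ribosomal protein genes reach 68.8% lower and primitive endoderm genes 32% higher.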

How the data were processed

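The deposited values are probe set intensities on a linear scale, per the labels from 1 Affymetrix array per sample, and the authors' summarising and scaling steps were not given in the sources used here. With 2% trimmed at each end the mean lay between 488.89 and 489.96 on all 8 arrays, and the 4 medians between 62.47 and 68.94, so no further scaling was applied. The number of arrays limits the precision. Of 44903 probe sets, 34758 named 1 gene symbol, 926 several and 9206 none, and 64 were controls. For each gene the probe set with the highest mean log2(intensity + 16) over the 4 arrays was kept. Differences were fitted with limma 3.58.1 (R 4.3.3, lmFit and eBayes with an intensity trend) and p-values adjusted by Benjamini-Hochberg. Fold changes on this scale understate changes of dim genes, and p-values measure only the spread between these samples. The fit was tested on simulated data. Named genes were the targets, condensin subunits, called genes, 12 largest differences per direction, up to 2 non-overlapping members per list with the smallest p, and 8 genes fixed by name (Pou5f1, Nanog, Sox2, Klf4, Esrrb, Cdkn1a, Hnrnpll, Top2a). Other members named here were chosen after their values were seen. The arrays, members and lists were chosen with earlier results of these data known. Alternatives changed the pseudocount, scaling, filter, probe set, spread, trend, replicate block and the arrays left out. Figures were drawn with matplotlib 3.10.9.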

Additional observations from a re-analysis of the deposited data

How the results depend on the processing

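Of 1598 pairs of a named gene and another setting, 1562 kept direction and side of the threshold, 33 reversed and 3 passed it; the cause was not tested. Without the filter, 2573 genes were higher and 2191 lower without overlap. Genes called were 1 with the replicate block over 8 arrays (Smc2, 1.37, limma adjusted p = 0.016), 1 with the probe set, filter and spread over all 8 arrays (Ncaph2, -2.58, adjusted p = 0.0042), and 0 to 2 with 1 array left out. The second of these settings was chosen after seeing the data, because earlier results with those choices had called Ncaph2. Changing only the probe set, also an alternative chosen after seeing the data, gave Ncaph2 -2.58 with an adjusted p of 0.22 and no call. The labels share no replicate numbers between the groups, and the block was taken from the array values (CapH2 hairpin 3 with Smc2 hairpin 1, and CapH2 hairpin 4 with Smc2 hairpin 2), so it is no independent pairing. Over the 4 arrays alone the replicate block called 0, with 391 genes at an unadjusted p below 0.05, beside 75 in the main setting and 451 with no filter. With 1 array left out, the difference ranged from 1.20 to 1.55 for Smc2 and from -1.59 to -1.20 for Ncaph2, where the lone array is assumed to vary like the other group. Signs turned for genes near 0: with 1 array left out, Ncapg ran from -0.35 to 0.25, Ncapg2 from -0.24 to 0.12, Smc4 from -0.31 to 0.15, Ncaph from -0.41 to 0.071, Top2a from -0.33 to 0.12, Ncapd2 from -0.10 to 0.24, Ncapd3 from -0.21 to 0.26, Sox2 from -0.048 to 0.14, Hnrnpll from -0.12 to 0.13, Klf4 from -0.15 to 0.14 and Cdkn1a from -0.38 to 0.17. Quantile normalization gave Klf4 0.054 and Top2a 0.0032. Median centring gave Ncapd3 -0.013 and Hnrnpll -0.028. The mean of all probe sets gave Ncapd3 -0.21, Smc4 0.00059, Hnrnpll -0.024, Klf4 0.015, Smc1a -0.21, Rad50 -0.26, Il6st -0.022, Gata6 -0.079, Slf1 0.059 and Mul1 0.094. With 2 arrays per group, small differences are not resolved: the median SE was 0.25 on the log2 scale.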
